A study of Homo sapiens with 4 samples.

Results

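The m6A peaks described here are the wide ones of RWPE1 cells that one condition listed and the other did not. RWPE1 is a line of human prostate epithelium that was immortalized and is not tumorous. The cells carried a lentiviral shRNA against FTO (labelled sh, here shFTO) or the vector control (labelled Ctrl, here shCtrl), and both were kept as stable lines under puromycin, the knockdown with 1 shRNA target sequence. RNA was pulled down with an m6A antibody (IP) and sequenced beside the RNA before pull-down (input), with 1 IP and 1 input library per condition, or 4 libraries in all. Each condition has 1 deposited peak list with the position, strand and score of every peak. The members were chosen by measured values: no overlap of 1 bp or more with any peak of the other list on either strand (list-specific), a width over 1000 bp and a score under 3100. They numbered 1494 of the 20410 peaks in both lists, 957 in the shFTO list and 537 in the shCtrl list. With 1 library pair per condition the lists have no replicate check, no test between them was made, and 95% Wilson intervals cover counting error only.

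m6A is a methyl mark on adenosines inside RNA. It is set by a complex built around METTL3 and METTL14, is removed by the demethylases FTO and ALKBH5, and is bound by reader proteins of the YTH family that alter how long an RNA lives and how it is translated. In messenger RNA the mark is known to gather in long internal exons and near stop codons, which are places where several marked sites can lie close together. An antibody pulls down RNA fragments rather than single bases, so neighbouring marked sites can appear as 1 broad peak. A peak that crosses an intron on the genome is also wider than the RNA it covers, and whether any of these peaks does so was not determined.

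The score is the deposited one, with lowest values of 50.03 in shCtrl cells and 50.05 in shFTO cells. It was taken as a P value on a log10 scale times 10, where a smaller P value gives a higher score. Strong and weak refer here to this score alone and not to a level of methylation. Many peaks shared the value 3100, 406 in shCtrl cells and 611 in shFTO cells, while 21 and 28 peaks lay above it, so it is a common value and not the highest one. All of these were outside the members, and 133 wide list-specific shCtrl peaks and 213 wide list-specific shFTO peaks were left out for this reason. The narrowest members were 1002 bp wide in shCtrl cells and 1003 bp wide in shFTO cells, and the widest list-specific peak just outside the limit was 1000 bp wide in both. The strongest members scored 3095.15 in shCtrl cells and 3064.74 in shFTO cells. Positions are on build hg19, which the submitters' processing notes name, and are counted from 1. The gene table used here is of another build, so no gene was assigned to a peak and no sequence is shown. The lists do not measure expression, so neither the loss of FTO nor the markers of prostate epithelium could be checked in them. The paper checked the depletion of FTO in the knockdown cells by western blot.

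FTO knockdown cells had more wide list-specific peaks than control cells. The 957 shFTO members against 537 shCtrl members are a ratio of 1.78, and shFTO peaks made up 64.1% of the members (95% Wilson interval 61.6% to 66.5%). Among all list-specific peaks the shFTO share was 50.8% (50% to 51.5%). Among list-specific peaks of up to 1000 bp it was 49.1% (48.3% to 50%), so there the control list held more, 7384 against 7134. Split at 1000 bp, the surplus of list-specific peaks in FTO knockdown cells thus lay among the wide peaks, but it did not begin there. Below a score of 3100 the shFTO list already led from 500 to 1000 bp, with 1076 against 951. The shCtrl list led at up to 150 bp, with 2963 against 2496. Wide peaks that overlapped the other list were also more frequent in shFTO cells, with 345 against 256 below a score of 3100 and a shFTO share of 57.4% (53.4% to 61.3%). Wide list-specific peaks at or above 3100 had a share of 61.6% (56.3% to 66.5%). The members made up 9.27% of the shFTO list and 30.7% of the bases it covers. In the shCtrl list they made up 5.32% of the peaks and 21.1% of the bases. Members covered 1699344 bp in shFTO cells and 868888 bp in shCtrl cells, a ratio of 1.96, and this difference of 830456 bp corresponds to 59.1% of the difference in length between the whole lists.

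The shFTO share was larger at higher width limits, while the difference in number became smaller. Over 500 bp the shFTO list had 2033 list-specific peaks below a score of 3100 and the shCtrl list 1488, a ratio of 1.37. Over 1500 bp there were 486 and 231, a ratio of 2.10. Over 2000 bp there were 245 and 109, and over 3000 bp there were 73 and 26. The shFTO share rose from 57.7% (56.1% to 59.4%) over 500 bp to 67.8% (64.3% to 71.1%) over 1500 bp and 73.7% (64.3% to 81.4%) over 3000 bp. Above 5000 bp the shFTO list had 9 members and the shCtrl list none. Peaks of the shFTO list were wider in general, with a median of 242 bp against 212 bp over all peaks. When the width limit of the shFTO list was raised by the same factor, to 1141.5 bp, 781 shFTO members remained and their share was 59.3% (56.6% to 61.9%), a setting chosen after seeing the data. Read depth and the strength of the pull-down, which were not measured here, cannot be told apart from the condition.

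**Figure D1:**
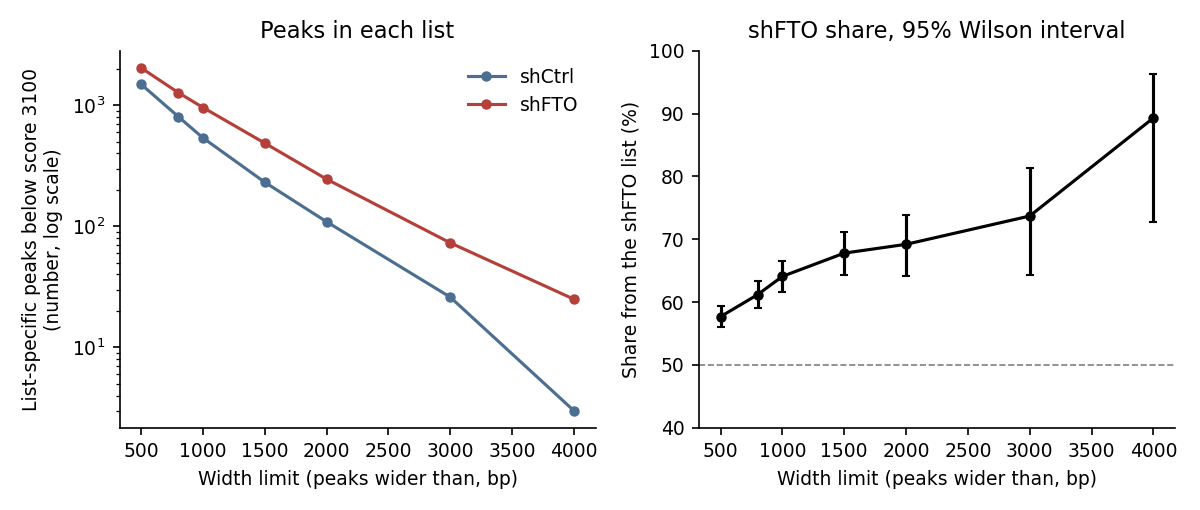
Number of list-specific m6A peaks below a score of 3100 that are wider than the limit on the x axis in bp (left, log scale) and the percentage of them that come from the shFTO list (right, 95% Wilson intervals, dashed line at 50%). The shFTO list holds more peaks at every limit shown, and its share goes from 57.7% over 500 bp to 73.7% over 3000 bp and 89.3% over 4000 bp, where the shCtrl list has 3 peaks.

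Wide peaks lacked a partner less often than the lists as a whole. Of the wide shCtrl peaks below 3100, 537 of 793 or 67.7% (64.4% to 70.9%) were list-specific, against 79.8% of all shCtrl peaks. Of the wide shFTO peaks, 957 of 1302 or 73.5% (71.0% to 75.8%) were list-specific, against 80.4% of all shFTO peaks. These shares are a description, since the overlap was part of the choice of members. A wide peak also offers more bases for an overlap. In the shCtrl list the share fell from 85.1% (83.9% to 86.3%) at up to 150 bp to 63.4% (54.8% to 71.1%) at 2000 to 3000 bp. In the shFTO list it fell from 84.1% (82.7% to 85.4%) to 68.0% (62.0% to 73.4%) over the same bands. Over 3000 bp the shares were 72.2% (56.0% to 84.2%) of 36 shCtrl peaks and 67.6% (58.3% to 75.7%) of 108 shFTO peaks, so most of the widest peaks also had no partner. Below 250 bp the lists had similar shares. From 500 to 1000 bp the shFTO share was 77.0% (74.7% to 79.1%) and the shCtrl share 73.5% (71.0% to 75.8%), and from 1000 to 1500 bp they were 76.2% (72.7% to 79.4%) and 68.9% (64.5% to 73.0%).

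**Figure D2:**
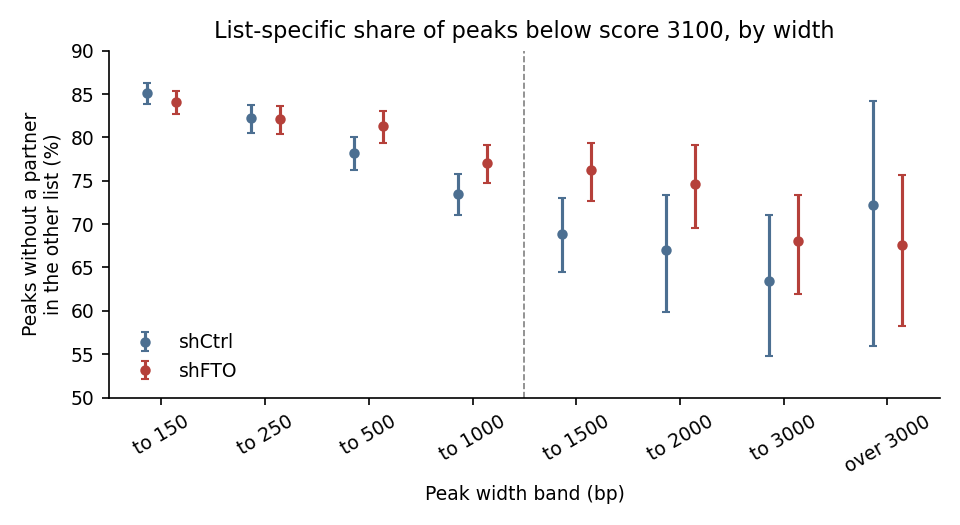
Percentage of the peaks below a score of 3100 that have no partner in the other list, in 8 bands of peak width in bp, for the shCtrl and shFTO lists with 95% Wilson intervals (y axis from 50% to 90%). The peaks to the right of the dashed line are over 1000 bp wide, and their share lies between 63.4% and 76.2%, below the 84.1% and 85.1% of the narrowest band.

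Members were found at all strengths, and shFTO members outnumbered shCtrl members at each of them. These counts do not allow for the number of list-specific peaks at each strength. In bands of score with the same bounds in both lists, chosen after seeing the data, there were 104 shFTO and 43 shCtrl members under 100, a shFTO share of 70.7% (62.9% to 77.5%). From 1000 to 2000 there were 187 and 125, a share of 59.9% (54.4% to 65.2%), and from 2000 to 3100 there were 117 and 64, a share of 64.6% (57.4% to 71.2%). The intervals of this share overlapped across all 5 bands, and a trend with score was not tested. Under 100, members were 4.53% (3.75% to 5.46%) of the list-specific peaks in shFTO cells and 1.63% (1.21% to 2.18%) in shCtrl cells. From 100 to 500 they were 9.71% (8.79% to 10.7%) and 4.99% (4.34% to 5.73%). From 500 upward the intervals of the 2 lists overlapped in each band. From 1000 to 2000 members were 28.5% of 657 shFTO and 27.9% of 448 shCtrl list-specific peaks. A second division ranked the peaks of each list by score and made 5 groups of equal size, whose bounds differ between the lists. There the weakest group held 76 shFTO and 23 shCtrl members, a share of 76.8% (67.5% to 84.0%), and the strongest 335 and 268, a share of 55.6% (51.6% to 59.5%). The strongest group began at a score of 613.3 for shCtrl peaks and 890.4 for shFTO peaks, and it also holds the peaks at or above 3100, which could not be members. In both lists members gathered among the stronger peaks: they were 1.26% (0.843% to 1.89%) of the list-specific peaks in the weakest shCtrl group and 19.4% (17.4% to 21.6%) in the strongest. In the shFTO list they were 4.19% (3.36% to 5.22%) and 21.5% (19.6% to 23.6%). High scores were not particular to members. Wide peaks below 3100 that overlapped the other list had median scores of 735.1 in shCtrl and 673.1 in shFTO cells. The medians of members were lower, at 611.6 and 532.9. Weak and wide peaks were nevertheless present, since those under 100 were 10.9% (9.05% to 13%) of the shFTO and 8.01% (6% to 10.6%) of the shCtrl members.

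**Figure D3:**
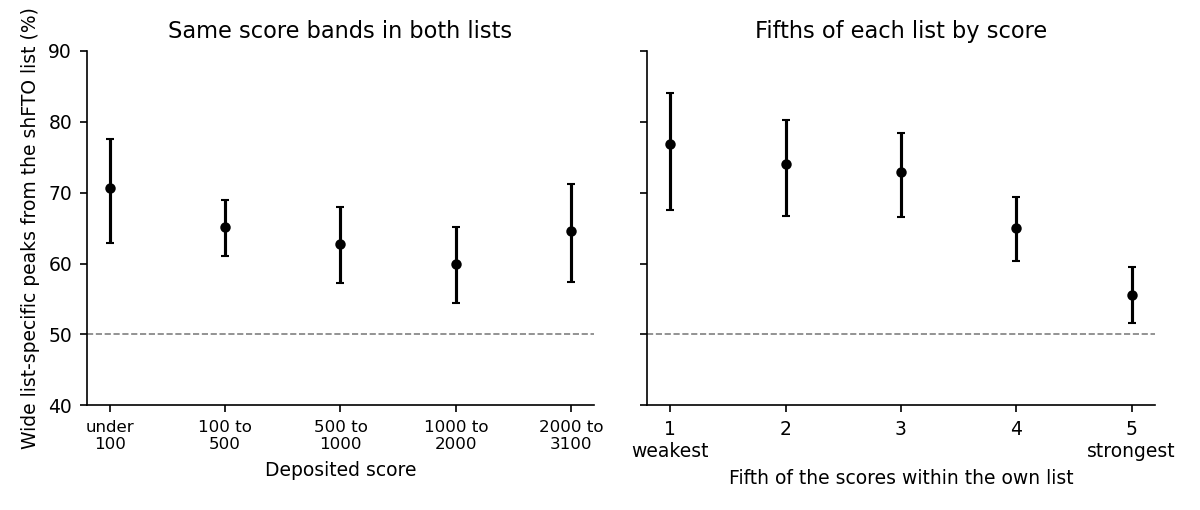
Percentage of the wide list-specific peaks that come from the shFTO list, with 95% Wilson intervals, in score bands with the same bounds in both lists (left) and in 5 groups of equal size by score within each list, whose bounds differ between the lists (right); y axis from 40% to 90%, dashed line at 50%. In the same bands the share lies between 59.9% and 70.7% and the intervals overlap, and a trend over them was not tested. In the groups made within each list it is 76.8% in the weakest and 55.6% in the strongest.

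The width of the members varied more in shFTO cells. The median was 1510 bp with quartiles of 1212 and 2010 bp in shFTO cells, and 1412 bp with quartiles of 1177 and 1846 bp in shCtrl cells. The median score was 532.9 in shFTO cells and 611.6 in shCtrl cells. The Spearman correlation of width and score across members was 0.250 in shFTO cells and 0.179 in shCtrl cells. Over all peaks of the lists it was 0.385 and 0.403. The choice of members set limits on both width and score, so the lower values among members cannot be read as a trait of wide peaks. Peaks of 1 list share their libraries, so these correlations are descriptions. Both strands were used alike, with 486 shFTO members on the plus and 471 on the minus strand, and 272 and 265 shCtrl members.

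**Figure D4:**
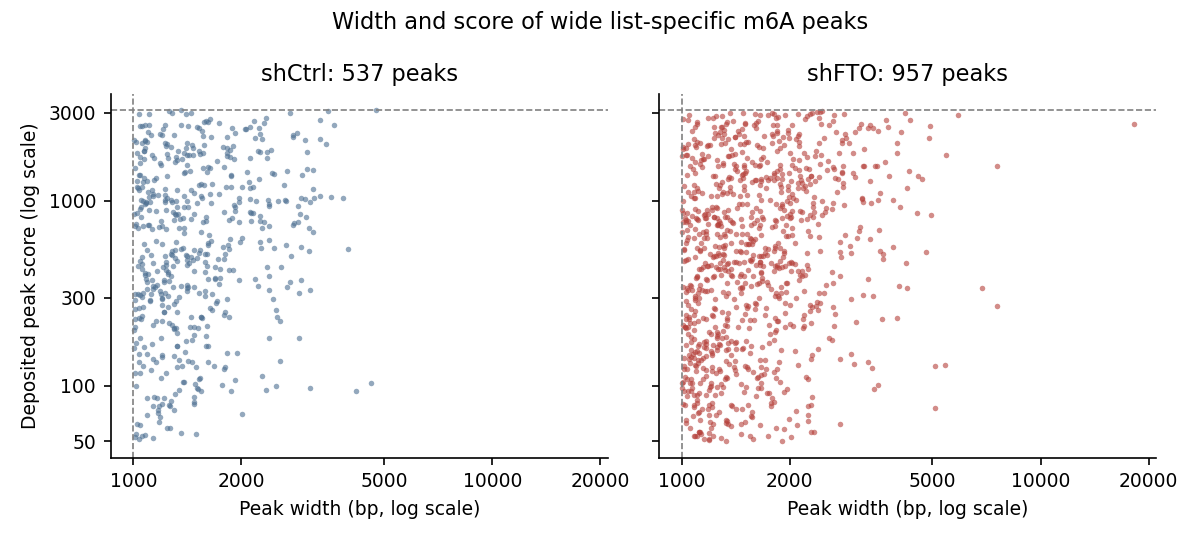
Width in bp (x axis, log scale) against the deposited score (y axis, log scale) of each wide list-specific peak, with 537 shCtrl peaks on the left and 957 shFTO peaks on the right. Dashed lines mark the limits of 1000 bp and 3100. The points fill the whole range of scores in both lists, and 1 shFTO peak of 18173 bp stands far to the right of the others.

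The widest member of all was a shFTO peak of 18173 bp on the minus strand, chr11:62283374-62301546, with a score of 2590.78. It was 2.40 times as wide as the next shFTO member, and the nearest shCtrl peak lay 12585 bp away. Without it the ratio of bases covered by members was 1.93. The second widest, chr17:17088137-17095712 on the plus strand, measured 7576 bp and scored 1537.34. The next 2 were of similar width but far weaker: chr6:87964368-87971928 (plus strand) measured 7561 bp with a score of 271.06, and chr5:112173250-112180139 (plus strand) measured 6890 bp with a score of 336.36. The fifth, chr17:77909029-77914906 on the minus strand, measured 5878 bp and scored 2919.17. The others of the 10 widest were chr11:73111841-73117302 (5462 bp), chr2:207171366-207176797 (5432 bp), chr1:32637099-32642168 (5070 bp), chr1:205682540-205687607 (5068 bp) and chr2:202030217-202035177 (4961 bp). Among these, the peaks at 207171366 on chromosome 2, 32637099 and 205682540 scored 129.27, 75.87 and 128.51, below the median score of 532.9 of the shFTO members.

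The widest shCtrl member, chr15:67482751-67487499 on the plus strand, measured 4749 bp and was also the strongest, with a score of 3095.15. It was narrower than every one of the 10 widest shFTO members. The next 2 were weak: chr2:85545334-85549922 (minus strand) measured 4589 bp with a score of 103.25, and chr6:36892557-36896738 (plus strand) measured 4182 bp with a score of 93.42. They were followed by chr17:417941-421914 (minus strand, 3974 bp, score 548.92) and chr10:5788142-5791990 (plus strand, 3849 bp, score 1033.35). The others of the 10 widest were chr16:2158253-2161872 (3620 bp), chr12:124496093-124499656 (3564 bp), chr17:20902906-20906386 (3481 bp), chr12:48235349-48238788 (3440 bp) and chr6:34555057-34558377 (3321 bp). Among the strongest members below 3100, the shFTO list had chr10:129895066-129897519 (score 3064.74), chr6:31626117-31628549 (3031.51), chr17:36666180-36668567 (3021.35), chrX:140269931-140271291 (2997.40) and chr14:74182007-74186204 (2993.11). The shCtrl list had, after the peak on chromosome 15, chr12:57489187-57490544 (3091.32), chr11:8751497-8752756 (3071.01), the chromosome 17 peak at 20902906 (3063.53) and chr15:99500290-99503024 (3002.24). Strong members were thus not always the widest, with widths from 1260 to 4749 bp in these 5 shCtrl peaks and from 1361 to 4198 bp in the 5 shFTO peaks.

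The surplus of shFTO members was spread over the genome. Of the 23 chromosomes with members, 23 had more shFTO than shCtrl members, and on all 23 members were a larger share of the list-specific peaks in the shFTO list. The intervals of the 2 lists did not overlap on 7 of them. The ratio was highest on chromosome 14, with 37 shFTO and 11 shCtrl members (3.36), followed by chromosome 4 with 44 and 15 (2.93), and lowest on chromosome 16 with 43 and 38 (1.13) and chromosome 15 with 25 and 21 (1.19). The interval of the shFTO share left out the value over all chromosomes on 1 of the 23, chromosome 16, at 53.1% (42.3% to 63.6%). In the shCtrl list, chromosomes 16 (38 of 362) and 19 (47 of 469) had the largest shares of members among list-specific peaks, where the whole list had 6.67%. In the shFTO list chromosome 18 (15.9%), chromosome 7 (15.3%) and chromosome 4 (15.1%) led, against 11.5% over the list. No member lay on chromosome Y, which had 8 and 12 list-specific peaks.

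**Figure D5:**
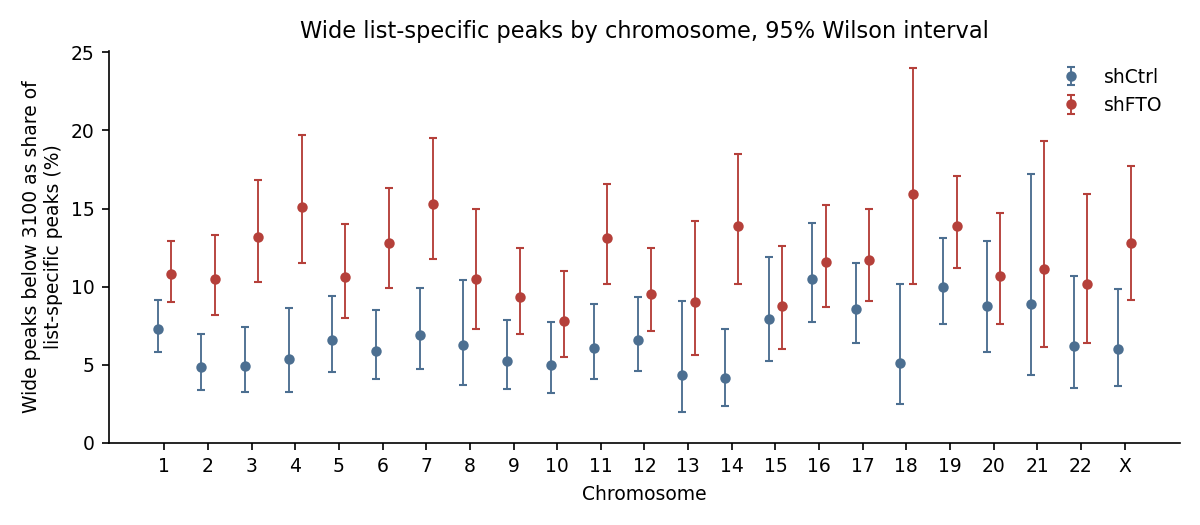
Wide list-specific peaks below a score of 3100 as a percentage of the list-specific peaks of each chromosome (x axis), for the shCtrl and shFTO lists with 95% Wilson intervals. The shFTO value is the higher one on all 23 chromosomes, most closely on chromosome 15 (8.77% and 7.95%) and chromosome 16 (11.6% and 10.5%).

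The distance to the other list, beyond the absence of an overlap, was not used to choose the members. In shFTO cells, members lay farther from the nearest shCtrl peak than narrower list-specific peaks did, with a median of 25174 bp (95% order-statistic interval 21551 to 28496) against 17280 bp (16521 to 18194). In shCtrl cells the medians were 20465 bp (16546 to 23550) for members and 18836.5 bp (17916 to 19759) for narrower peaks, whose intervals overlap. On the same strand the medians were 38651 bp for shFTO members and 28809 bp for shCtrl members. Distances within the own list ran the same way, and the nearest other shFTO peak lay at a median of 24295 bp (20989 to 27364) from a shFTO member and 15093.5 bp (14535 to 15832) from a narrower list-specific peak. For shCtrl members these medians were 20032 bp (16967 to 23318) and 17683 bp (16762 to 18672). A close neighbour of the own list was nonetheless more frequent for members: within 1000 bp, 7.31% (5.83% to 9.14%) of shFTO members and 4.08% (3.64% to 4.56%) of narrower shFTO-only peaks had one, and 8.75% (6.65% to 11.4%) and 4.92% (4.45% to 5.43%) in shCtrl cells. Within 10000 bp of a peak of the other list there were 30.3% (27.5% to 33.3%) of shFTO members and 37.6% (36.5% to 38.7%) of narrower shFTO-only peaks. In shCtrl cells these shares were 34.5% (30.6% to 38.6%) and 36.2% (35.1% to 37.3%).

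A few members came close to the other list without touching it. Within 1000 bp of a shCtrl peak there were 50 shFTO members, and 47 of these had it on their own strand. In shCtrl cells 26 members lay within 1000 bp of a shFTO peak, 24 on the same strand. The members within 1000 bp were 5.22% (3.99% to 6.82%) of shFTO and 4.84% (3.33% to 7.0%) of shCtrl members. Over all list-specific peaks the shares were 4.14% (3.73% to 4.59%) and 4.44% (4.02% to 4.92%), and the intervals overlap within each list. Within 100 bp there were 5 shFTO members, or 0.522%, and no shCtrl member, against 0.229% and 0.248% of all list-specific peaks. The closest was chr5:153432480-153433995 on the plus strand, 1516 bp wide with a score of 1454.30, and a shCtrl peak of 946 bp began 19 bases after its end. On the minus strand, chr19:56102737-56104958 (2222 bp, score 1137.33) was followed after 20 bases by a shCtrl peak of 34 bp with a score of 78.09. These members count as list-specific by a margin of a few bases, but leaving out every member within 100 bp took away only these 5.

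Members of both lists sometimes lay in the same neighbourhood. On the same strand and within 10000 bp there were 23 pairs of a shFTO and a shCtrl member, with a median gap of 2808 bp. They were made of 22 shFTO members, or 2.3% (1.52% to 3.46%), and 21 shCtrl members, or 3.91% (2.57% to 5.9%). A matching share for narrower list-specific peaks is not given, so whether such pairs are frequent is not known. The shFTO member was the wider one in 11 pairs and the shCtrl member in 12. The closest pair lay on the minus strand of chromosome 4, where a shCtrl member at chr4:10444419-10446397 (1979 bp, score 599.61) was followed after 208 bases by a shFTO member at chr4:10446606-10448163 (1558 bp, score 165.16). On the plus strand of chromosome 16, a shCtrl member at chr16:4737404-4739661 (2258 bp, score 597.08) was followed after 229 bases by a shFTO member at chr16:4739891-4740975 (1085 bp, score 218.52). On chromosome 6, chr6:42072201-42075321 in shFTO cells (3121 bp, score 2468.31) and chr6:42068872-42071616 in shCtrl cells (2745 bp, score 505.72) were 584 bases apart on the minus strand. In these 3 stretches of chromosome both conditions had wide peaks listed, but at positions side by side. Whether either condition also had an unlisted peak at the position of the other is not known from the lists.

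Within a list, wide members also followed each other. The shFTO list had 19 runs of members on the same strand with gaps of at most 10000 bp, which took in 40 of its 957 members or 4.18% (3.08% to 5.64%), and 2 of these runs held 3 members. They lay on the plus strand of chromosome 5 from 140783719 to 140795080 and on the plus strand of chromosome 3 from 40573521 to 40580909. The shCtrl list had 8 runs of 2 members, 16 of 537 or 2.98% (1.84% to 4.78%). The longest by summed width was on the plus strand of chromosome 17 from 57280960 to 57289216, a peak of 3111 bp with a score of 97.20 and one of 1921 bp with a score of 2318.29. In shFTO cells, chr9:125154468-125157982 held 2 members of 2318 and 1154 bp with 43 bases between them, so peaks covered this stretch of 3515 bp but for those bases. How often narrower list-specific peaks form such runs is not given here.

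The numbers in the peak names carry a further measurement, since they rose with position on every chromosome in both lists and run up to 161598 in shFTO cells and 173974 in shCtrl cells. Read as the order of all peaks that were found, the numbers skipped between 2 listed peaks count peaks that were found there but not listed. For a shFTO member, the shCtrl peaks listed on either side had a median of 27 skipped numbers between them (95% order-statistic interval 25 to 30), over a median of 241440 bp, and at least 1 in each of the 949 members with a listed shCtrl peak on both sides. For a shCtrl member, the median was 23 skipped shFTO numbers (21 to 25) over 185142.5 bp, and only 1 of 532 members had none. That member, singled out after its value was seen, was chr10:24834382-24835659 on the plus strand, 1278 bp wide with a score of 212.03, which lay in a stretch of 39127 bp in which no shFTO peak was numbered. Skipped numbers were slightly sparser around shFTO members than around narrower shFTO-only peaks. The medians were 11.4 per 100 kb (10.1 to 12.7) against 14.4 (14.1 to 14.8). For shCtrl peaks they were 12.2 (11 to 14) against 13.2 (13 to 13.6), and these intervals overlap. The lists therefore show that a wide peak was not listed in the other condition, and for all members but 1 of those with listed peaks on both sides they do not show that no peak was found there.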

How the data were processed

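MeRIP-seq of RWPE1 cells was deposited as 2 peak lists, 1 for each condition. According to the submitters' processing notes, cutadapt 1.9.3, HISAT2 and build hg19 were used. The peak names are those MACS writes, and its settings and the rule that kept the listed peaks are not given in the sources used here. The score of each peak was deposited by the authors. Read totals were not used, so the depth behind a peak is unknown. Lists were read in Python 3.11.15 with pandas 2.3.3, and intervals come from SciPy 1.17.1. Distances are bases between peak edges. Medians have order-statistic intervals at the 95% level. The members, lists and settings were chosen with earlier results of these data known. Items named are the 10 widest and 5 strongest members of each list, those at the limits, and close pairs and runs chosen after their values were seen. On simulated lists, the rule recovered all 120 and 80 planted members, which checks the code and says nothing about the deposited peaks. Gene, exon and motif comparisons were not made, since a genome and annotation of hg19 were not used here.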

Additional observations from a re-analysis of the deposited data

How the results depend on the processing

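No paired analysis was possible because there is 1 IP and 1 input library for a condition, and for that reason no library could be left out either. In all alternatives to the choice of members the shFTO list held more members than the shCtrl list. Of 80 values under alternatives, 60 stayed within their interval or, for counts, within 1.5 times. Treating peaks within 100 bp as shared, or overlaps under 50% of the shorter peak as absent, moved none. With a width over 800 bp the shFTO share was 61.2% and the median widths were 1177 bp (shCtrl) and 1297 bp (shFTO). Over 1500 bp there were 231 shCtrl and 486 shFTO members, a share of 67.8%, with medians of 1923 and 2005.5 bp. With no limit on the score the medians were 1478 and 1577.5 bp. With a score under 1000 there were 348 shCtrl members, and the shFTO median was 1425 bp. With overlap counted on the same strand alone, median distances to the other list were 28602 bp (shCtrl) and 38650.5 bp (shFTO), because peaks on the opposite strand were left out. With the width limit scaled to the median width of each list, added after seeing the data, the share was 59.3% and the shFTO median 1666 bp. Within 50 kb on the same strand, 48 shCtrl and 52 shFTO members had a member of the other list, and 36 and 90 one of their own list. Alternatives for genes, exons, motifs and gene lists were not run. The unknown depth limits what the absence of a peak from a list shows.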
